A study of Mus musculus with 10 samples.

Results

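The baseline transcriptome of the adult control dentate gyrus comprised 16923 genes, 34.9% of the 48526 gene identifiers in the table, each averaging 10 or more normalized counts across the 5 control libraries. A normalized count is a read count divided by a scaling factor of its library, so that libraries of different depth can be compared. C57Bl/6 mice of 8 weeks of age gave the tissue. Each control mouse had received 1 µl of an adeno-associated virus (AAV) of serotype 9 encoding green fluorescent protein (GFP) in the left and in the right dentate gyrus. The dentate gyrus was later microdissected from the unfixed brain, kept in RNAlater, and its RNA was isolated with the RNeasy kit. Libraries were made from 100 ng of total RNA with the TruSeq Stranded mRNA kit, which selects poly(A) RNA and keeps its strand. The promoter that drove GFP, the time from injection to dissection, the sex of the mice and any pooling of tissue are not given in the sources used. No uninjected tissue was analysed, so the values are those of dentate gyrus that had received virus, and transcripts of the virus itself were not analysed here. The libraries carry the numbers of their columns, GFP 1, GFP 3, GFP 4, GFP 5 and GFP 6, and 5 values given in a row are in that order.

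The dentate gyrus is the entrance to the hippocampal circuit. Its principal cells, the granule neurons, receive input from the entorhinal cortex and send mossy fibres to CA3 pyramidal neurons and to the mossy cells of the hilus. The dentate gyrus also keeps neural stem cells that add new granule neurons in adult life. Its microdissected tissue holds interneurons, astrocytes, oligodendrocytes, microglia and vessels beside the granule neurons, and it borders on CA3, CA1, the thalamus, the meninges and the choroid plexus of the ventricles. In whole tissue of this kind, fewer cells of a type and less RNA per cell cannot be told apart.

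Between 46510924 (GFP 3) and 56040604 (GFP 5) reads were assigned to genes in a library, and between 22312 and 23024 genes had at least 1 read. Genes with a mean of at least 10 held 99.96% of all normalized counts. Just inside this limit lay Gm13112 with a mean of 10.007, and just outside it Gm8337 with 9.9942. Of the 16923 genes 14219 had a mean of at least 50, 8134 of at least 1000, 1131 of at least 10000 and 23 of at least 100000. A further 21847 identifiers had no read in any of the 5 libraries. Xist, the noncoding RNA made from the inactive X chromosome of females, had 36689.9, 37916, 37576, 32423 and 34916 normalized counts. The Y-linked genes Ddx3y, Uty and Eif2s3y had no read in any library, and Kdm5d had a value above 0 in GFP 3 alone, at 1.15.

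The 5 libraries were not alike. The pair closest to each other was GFP 5 and GFP 6, with a median absolute difference of 0.0957 on the log2 scale over the genes, and 402 genes that differed at least 2-fold. The pairs farthest apart by that median were GFP 3 with GFP 6 (0.201) and GFP 3 with GFP 5 (0.199), with 1710 and 1799 genes that differed at least 2-fold. GFP 3 held transcripts of choroid plexus epithelium and of photoreceptor-type cells far above the other libraries, GFP 1 those of the habenula and the anterior pituitary, and GFP 1 and GFP 3 together those of the meninges. The genes behind these statements are given below with their values, and counts that include these libraries are given with and without them. An SD of at least 0.5 on the log2 scale was found for 12.1% of all genes, for 9.47% of them without GFP 3 and for 7.04% without GFP 1 and GFP 3. It is less frequent at high levels, at 1.93% of genes with a mean of 1000 to under 5000 and 0.51% from 5000 on.

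The genes of highest mean normalized count came from the mitochondrial genome, from the calcium and calmodulin pathway of excitatory neurons, and from astrocytes. These counts are not divided by gene length, and the levels per kilobase given below have another order. Cytochrome c oxidase subunit 1, mt-Co1, had the highest mean, 872976 ± 83818 normalized counts (mean ± SD, n = 5), followed by cytochrome b, mt-Cytb, at 523260.3 ± 46612. All genes of the mitochondrial genome together took 5.26% ± 0.46 of the counts (n = 5), from 4.63% in GFP 1 to 5.71% in GFP 4. Of its 13 protein-coding genes 5 are listed at 0 in every library, as given below. The share therefore covers only the reads that were assigned. The nuclear transcript of highest mean was Camk2a, the alpha subunit of the calcium and calmodulin-dependent kinase II of excitatory synapses, with 227092, 241834, 298872, 314015 and 285374 normalized counts. GFP 1 was lowest and GFP 5 highest, and the SD on the log2 scale was 0.20. Slc1a2, the main astrocytic glutamate transporter, followed at 205204 ± 24863.

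The next nuclear genes by mean included genes of the synapse and of secretion. Ncdn, neurochondrin, a neuronal protein of dendrites, had 181026 ± 15484 normalized counts and Ddn, dendrin, a postsynaptic protein whose RNA lies in dendrites, 174261 ± 16862. Snap25, a core protein of vesicle fusion, had 128125 ± 14592, and Cplx2, complexin 2, which binds the fusion complex, 125083 ± 15527. Cpe, the carboxypeptidase that trims peptide hormones, had 128102 ± 8789.8. Adcy1, a calmodulin-stimulated adenylyl cyclase, and Ppp3ca, the catalytic subunit of calcineurin, each had a mean above 100000, at 113376 and 112385. Eef1a1, a translation elongation factor, completed the 20 highest with 104948, 104128, 99979, 105762 and 103339 normalized counts and an SD of 0.03 on the log2 scale, the narrowest spread of these 20. Only 48.5% of its 31-base words are its own, found in no transcript of another gene, and this share is 36.1% for mt-Co1, so reads of these genes could be split with near copies.

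**Figure D1:**
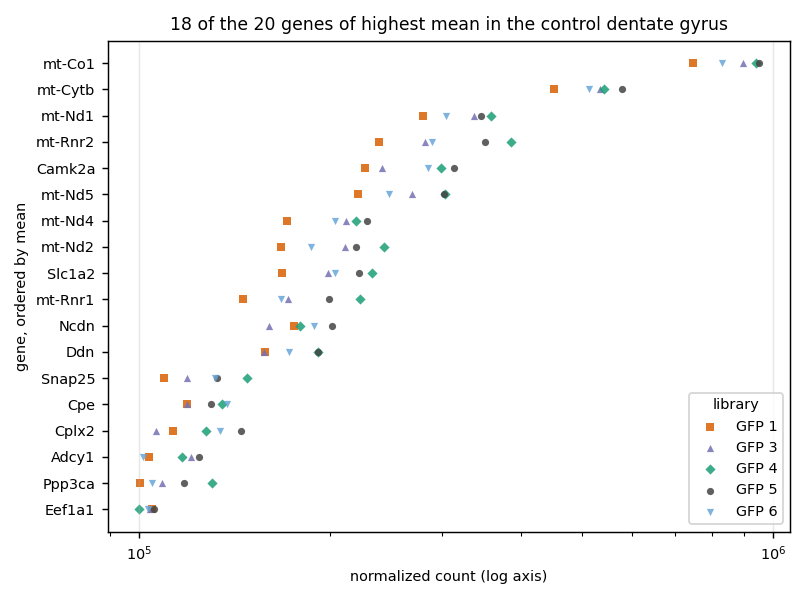
Normalized counts (horizontal, log axis) of 18 of the 20 genes with the highest mean, 1 point per control library. The points of a gene lie close together on this axis, the widest range being that of mt-Rnr2 (highest over lowest 1.61-fold), and GFP 1 is lowest for the mitochondrial genes, Camk2a and Slc1a2.

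The counts were spread over many genes. The 10 highest genes held 6.21% ± 0.54 of all normalized counts (n = 5), the 100 highest 18.7% ± 0.70 and the 1000 highest 50.2% ± 1.08. Without the mitochondrial genome the share of the 100 highest was 14.9%, and counted per kilobase of exon it was 30.9%. Protein-coding genes made up 14877 of the 16923 genes and held 98.0% of the counts of these genes. Long intergenic noncoding RNA genes numbered 492 and held 0.56%, and antisense RNA genes numbered 472 and held 0.128%. The median protein-coding gene had a mean of 1203 normalized counts, against 38.4 for long intergenic noncoding RNAs.

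Levels can be compared between genes only per length, so the following values are normalized counts per kilobase of merged exon. The calmodulin genes Calm2 and Calm3, which encode the same protein, were among the 20 highest of the whole tissue per kilobase. Calm2 stood at 51404 ± 4538 per kilobase and Calm3 at 39675 ± 2757 (mean ± SD, n = 5). The range of Calm2 over the libraries (47659.6 to 59143) lay above that of Calm3 (35924 to 41779), and Calm2 has 81.9% of its 31-base words its own. Neurogranin, Nrgn, a postsynaptic protein that binds calmodulin at low calcium, stood at 39296 ± 2905, while Pcp4, another calmodulin-binding protein and a marker of CA2, stood at 1892 ± 309. The other leaders per kilobase were Cpe (49100.2), Ncdn (48794), Ddn (46089), Selenow, a small selenoprotein (41679.6), and Eef1a1 (41569). Of the 7 genes listed as calmodulins and calmodulin buffers, all with a mean of at least 1000, none had an SD of 0.5 or more on the log2 scale, near the 1.93% and 0.51% of genes at those levels.

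Of the 13 protein-coding genes of the mitochondrial genome 7 passed the mean of 10. Per kilobase mt-Co1 stood at 565033 ± 54251, mt-Cytb at 457395 ± 40745, mt-Nd1 at 340307 ± 33628, and mt-Nd6, which lies alone on the opposite strand, at 6448 ± 2324. The genes mt-Co2, mt-Atp6, mt-Atp8, mt-Nd3 and mt-Nd4l are listed at 0 in every library, and mt-Co3 is listed at 2.08 in GFP 6 and at 0 elsewhere, so these entries give no level. Of the 31-base words of mt-Co2, mt-Co3, mt-Atp6, mt-Nd3 and mt-Nd4l, at most 1.89% are found in no transcript of another gene, and 92.5% of those of mt-Atp8, and the part of this in the values of 0 was not tested. The ribosomal RNAs of the mitochondrion, mt-Rnr1 and mt-Rnr2, had 146087, 171562, 222844, 199537 and 167253 and 239368, 282409, 386181, 351844 and 289964 normalized counts, lowest in GFP 1 and highest in GFP 4 for both. Gm42418, Gm23935 and Mir6236, gene models with high levels per kilobase (52687, 110336 and 92418), varied more, with SDs of 0.47, 0.85 and 0.69 on the log2 scale. Only 3.7% of the 31-base words of Gm42418 and none of those of Gm23935 are their own.

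Markers of granule neurons were present throughout, in keeping with the tissue label. All 16 listed granule neuron markers passed the mean of 10, and none had an SD of 0.5 or more. All 16 had a mean of at least 1000, where 1.93% (to under 5000) and 0.51% (from 5000) of genes had such an SD, so their count is near that of genes of like level. Prox1, the homeodomain transcription factor that sets granule cell identity (ENSMUSG00000010175, chromosome 1, 190118035 to 190170714, minus strand, GRCm38), had 14744, 13354, 15142, 20946 and 15085 normalized counts. GFP 5 stood above the other 4 libraries, which lay within 13354 to 15142, and the mean was 15854 ± 2937 (SD, n = 5). Calb1, the calcium-binding protein calbindin of mature granule neurons (chromosome 4, 15881264 to 15908064), had 13255, 10926, 13074, 17435 and 13927, again with GFP 5 highest. C1ql2, a synaptic organizer of mossy fibres, led the list per kilobase at 4915 ± 916, followed by Calb1 at 2832, Stxbp6, a regulator of vesicle fusion, at 2528 and Prox1 at 1889.7. Desmoplakin, Dsp, had 7813, 8284, 7797, 9619 and 8134 normalized counts, the lactase gene Lct 5007, 5287, 5428, 5891 and 4628, and the transcription factor gene Rfx3 11088, 10807, 12123, 14712 and 11975. The lowest of the 16 per kilobase was Tdo2, tryptophan dioxygenase, at 275.

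The sum of the 16 markers was 19823, 17134, 18032, 23768 and 19948 per kilobase. GFP 5 was highest for 15 of the 16 markers, where it was highest for 20.8% of all genes, and GFP 6 for the remaining Npy1r, a neuropeptide Y receptor, at 2460.3, 2431, 2522, 2559 and 2608 normalized counts. The lowest sum was in GFP 3. The SD of the markers ranged from 0.04 for Npy1r to 0.28 for C1ql2 on the log2 scale. Dynorphin, Pdyn, the opioid peptide of mossy fibres, had 2048, 1639, 1796, 2457 and 1959 normalized counts, and Trpc6, a cation channel, 1605, 1378, 1513, 1948 and 1604.

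The lists of other principal cells of the hippocampus had lower sums than the granule neuron list, over fewer genes. The median gene of a list stood at 741 per kilobase for granule neurons, 162 for mossy cells, 732 for CA3, 530 for CA2 and 214 for CA1. The 9 mossy cell markers summed to 8172, 5925, 6136, 7685 and 7815 per kilobase, of which the calcium-binding protein calretinin, Calb2, made up 48.1%. Calb2 had 7766, 4134, 3841, 7167 and 7036 normalized counts, with GFP 3 and GFP 4 below the other 3. Calb2 is also made by interneurons and by immature granule neurons. Among mossy cell markers of more restricted expression, the dopamine receptor Drd2 had 143, 111, 94.6, 129 and 142, the cytokine receptor Csf2rb2 226, 151, 135, 178 and 206 and the membrane protein Ajap1 2282, 2302, 2558, 2777 and 2608. No mossy cell marker reached an SD of 0.5. Among all genes 12.1% did, with 22.6% at a mean of 50 to under 200, where several of these markers lie. The share was 9.56% at 200 to under 1000, 1.93% at 1000 to under 5000 and 0.51% from 5000 on.

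The 7 CA3 markers summed to 5008 to 6417 per kilobase. Bok, a BCL2-family protein, had 2882, 3370.1, 3671, 4342 and 3879 normalized counts and the kainate receptor subunit Grik4 4104, 3591, 4252, 4605 and 5269. Coch, an extracellular protein, was the CA3 marker that varied, with 791, 1201, 579, 188 and 438. Its order over the libraries, with GFP 3 highest and GFP 5 lowest, was not that of Iyd, an iodotyrosine deiodinase, with 272, 380.1, 505, 423 and 333. The 5 CA2 markers summed to 3323 to 4409.7 per kilobase, led by Pcp4 and by Rgs14, a signalling scaffold that limits plasticity in CA2, with 4247, 5290.1, 6251, 5506 and 4421 normalized counts. Map3k15, a kinase, had 63.8, 316, 164, 51.8 and 49.8 and was the CA2 marker with an SD above 0.5.

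CA1 pyramidal neuron markers differed between the libraries much more than granule neuron markers. All 9 had an SD of at least 0.5, against 12.1% of all genes, and 8 of 9 without GFP 3, against 9.47%. The list summed to 3538, 4525, 4885, 1546 and 2752 per kilobase, a range of 3.16-fold. Fibcd1, an acetyl-recognizing membrane protein used as a CA1 marker, had 2613, 3384, 4929, 1114 and 2718 normalized counts, and Mpped1, a phosphoesterase, 2897, 4135, 5689, 1664 and 3384. Both were highest in GFP 4 and lowest in GFP 5. The transcription factor Pou3f1 had 710.3, 992, 1094, 115 and 176, and the secreted factor Lefty1 205, 308, 362, 47.8 and 38.4. For both genes GFP 1, 3 and 4 all lay above GFP 5 and 6, an order that 6 of the 9 CA1 markers and 18.0% of all genes showed. Decorin, Dcn, on the list as a marker of deep CA1 neurons but also a fibroblast product, followed another order, with 2161, 3263, 1122, 330.4 and 2282.

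GFP 5 had the highest granule neuron sum and the lowest CA1 sum. The sums depend on the length used for each gene. With the longest transcript as length the granule neuron sum averaged 22495 per kilobase, against 19741 ± 2549 with merged exons.

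**Figure D2:**
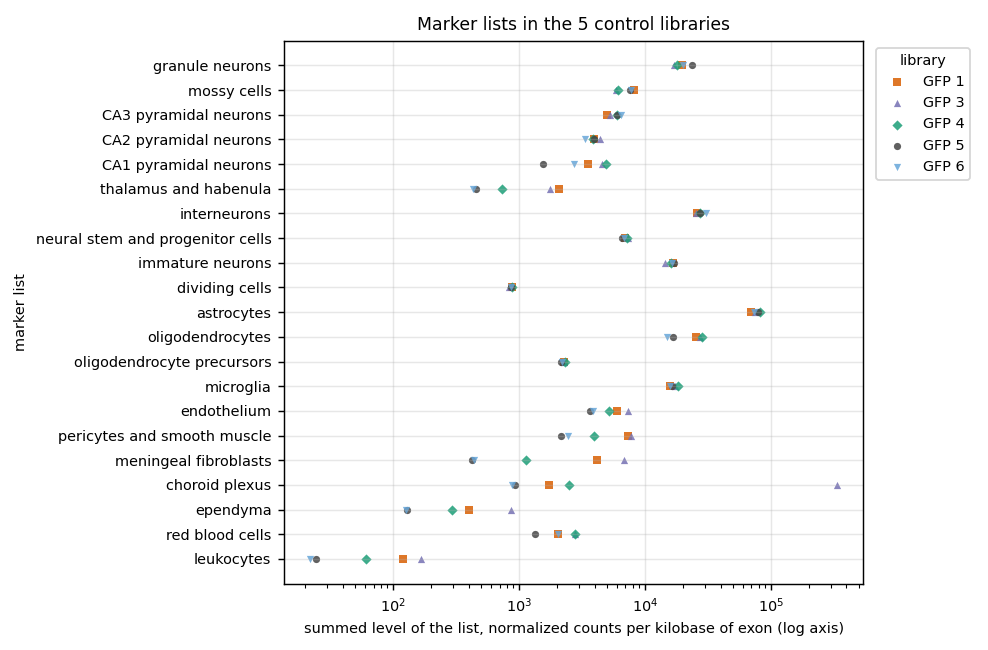
Summed level of each marker list (normalized counts per kilobase of exon, log axis) in each control library, 1 point per library. Points of the granule neuron, interneuron, astrocyte and microglia lists lie close together, while meninges spread from 419 to 6773 and choroid plexus from 880.3 to 337097.

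Of 22 listed transcription factors of the hippocampus 3 had an SD of 0.5 or more, Meis2 and Lef1 among them. All genes had 12.1%, with 9.56% at a mean of 200 to under 1000 and 1.93% to under 5000. Neurod6, a factor of pyramidal neurons, led the list per kilobase at 4408 ± 1104, with Neurod2 at 3559, Bhlhe22 at 3019.5 and Nfix, a nuclear factor of stem cell and neuron maturation, at 2057. Neurod6 had 7064, 9448, 13421, 8793 and 8657 normalized counts, highest in GFP 4. Bcl11b, a zinc finger factor of granule neurons, had 8752, 8782, 10956, 10954 and 8794, and Zbtb20, which sets hippocampal identity in development, 15507, 19838, 19952, 19888 and 16929. Meis2 varied, with 388, 727, 1231, 270.4 and 490.2. Lef1, a nuclear partner of beta-catenin in Wnt signalling, had 483, 563, 293, 224 and 231, higher in GFP 1 and GFP 3.

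None of the 17 interneuron markers reached an SD of 0.5. At a mean of 1000 or more, as for most of them, few genes did (1.93% to under 5000, 0.51% from 5000). The sum of the list lay at 25789, 25597, 27272, 27634 and 30449.8 per kilobase. The enzymes that make GABA, Gad1 and Gad2, had 15919.5, 15382, 18709, 19312 and 18408 and 6588, 7503, 8842, 7860.3 and 7909 normalized counts, and the vesicular GABA transporter Slc32a1 2210.0, 1971, 2343, 2311 and 2669. Per kilobase, the peptides cholecystokinin, Cck, at 7484 ± 393 and somatostatin, Sst, at 7387 ± 1218 led the list and overlapped in their ranges, above neuropeptide Y, Npy, at 3413 ± 408. Cck is also made by excitatory neurons. Parvalbumin, Pvalb, of fast-spiking basket cells stood at 673 ± 84.7 and vasoactive intestinal peptide, Vip, at 129 ± 17.5. The transcription factor of medial ganglionic interneurons, Lhx6, had 828, 721, 879, 977 and 1024 normalized counts and the cannabinoid receptor of Cck basket cells, Cnr1, 9034, 9169, 12510.5, 10642 and 11932.

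Transcripts of dividing cells were present at low levels, and which cell types made them was not tested. Genes of dividing cells summed to 837 to 878 per kilobase, and 10 of 10 listed genes passed the mean of 10. Most of that sum came from Pcna, a clamp of DNA replication and repair that is not limited to dividing cells, with 1536, 1448, 1575, 1479 and 1508 normalized counts. Genes used in mitosis were far lower. Mki67, the proliferation antigen Ki-67, had 106, 114, 111, 108 and 89.3, Top2a, a topoisomerase, 154, 145, 131, 167 and 156, and the mitotic kinase Cdk1 32.9, 46.1, 33.0, 21.3 and 28.0. Cyclin B1, Ccnb1, had 15.5, 34.6, 29.7, 24.4 and 18.7 and Aurora kinase B, Aurkb, 21.3, 10.4, 14.3, 20.3 and 17.7.

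Stem and progenitor markers had 4 of 12 members at an SD of 0.5 or more, against 12.1% of all genes, and 2 of 12 without GFP 1 and GFP 3, against 7.04%. Those 4 were the intermediate filament vimentin, Vim, the lysophosphatidic acid receptor Lpar1, thrombospondin 4, Thbs4, and the transcription factor Tfap2c. Vim had 3890.5, 4499, 2446, 1468 and 1458 normalized counts, and it is also made by fibroblasts, vessels and ependyma. Nestin, Nes, the filament of radial stem cells that vessels also make, had 881, 950.2, 662, 459.5 and 468, and Vim and Nes were both higher in GFP 1, 3 and 4 than in GFP 5 and 6. The stem cell transcription factor Sox2 had 1308, 1361, 1410.0, 1243 and 1360.4, the homeodomain protein Hopx 4234, 4377, 5023, 4806 and 5136, and the Notch target Hes5 453, 357, 365, 489 and 482. Eomes (Tbr2), a factor of intermediate progenitors, was near the lower end of the list, with 71.5, 99.1, 56.1, 77.3 and 40.5.

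None of the 13 markers of immature neurons varied by an SD of 0.5. Most had a mean of at least 1000, where 1.93% (to under 5000) and 0.51% (from 5000) of genes did. Doublecortin, Dcx, the microtubule-binding protein of newborn neurons, had 1205, 1179, 1301, 1246 and 1277 normalized counts, an SD of 0.06 on the log2 scale. Sox11, a SoxC-family transcription factor of newborn neurons (ENSMUSG00000063632, chromosome 12, 27334264 to 27342574, minus strand), had 1399, 1367, 1364, 1634 and 1383, with GFP 5 above the rest, and its relative Sox4 had 1054, 1011, 988, 916 and 829.7. An opposite-strand gene covers 54.6% of the exonic bases of Sox4, 45.3% of its 31-base words are its own, and the sources used here do not give the strand setting of the counting. Neurod1, which promotes granule neuron survival and maturation, had 1675, 1609, 1868, 2167 and 1882. Per kilobase Sox11 stood at 172 ± 13.8, Dcx at 98.2 ± 3.96 and Neurod1 at 674 ± 79.9, against 5363 ± 515 for the neuronal tubulin Tubb3, which mature neurons also make, and 1889.7 for Prox1. Draxin, an axon guidance protein, had 132, 145, 136, 198 and 146 normalized counts, and Igfbpl1 304, 276, 211, 301 and 276.

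Astrocyte markers summed to 69108, 74376, 82470.4, 79364 and 73884 per kilobase, the highest sum of the marker lists except for choroid plexus in GFP 3. None of the 14 varied by an SD of 0.5. All had a mean of at least 1000, where 1.93% (to under 5000) and 0.51% (from 5000) of genes did. Glutamine synthetase, Glul, led at 25895 ± 2129.8 per kilobase, followed by Slc1a2 at 15625 ± 1893 and aldolase C, Aldoc, at 11459 ± 1072. The intermediate filament Gfap had 17559, 21148, 20655, 17350.3 and 16855 normalized counts and the water channel Aqp4 11304, 12304, 13196, 9156 and 9762. Aldh1l1, a folate enzyme, had 2545, 2699.8, 2772, 2577 and 2549.5, with an SD of 0.06. The gap junction protein Gjb6 varied most of the list, with 3746, 4500.0, 2824, 2760.1 and 2440.4, and GFP 1 and GFP 3 lay above the other 3.

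Myelin genes followed a division of the libraries into GFP 1, 3 and 4 on the high side and GFP 5 and 6 on the low side. All 12 oligodendrocyte markers showed this order, against 18.0% of all genes. The list summed to 25334, 27615, 28560.5, 16693 and 14930.3 per kilobase, and its range was 1.91-fold. Mbp, myelin basic protein, had 53454, 58773, 57716, 40029 and 35055 normalized counts, and Mobp 15585, 20158, 18600.3, 9372 and 9209. Mal, a myelin lipid-raft protein, had 6381, 7488, 7524, 3894 and 3402 and the tight junction protein Cldn11 2687, 3291, 3375, 1648 and 1451. Sox10, the transcription factor shared by oligodendrocytes and their precursors, also had its 3 highest values in GFP 1, 3 and 4, but over a narrow range, with 1242, 1068, 1089, 1046 and 1061 and an SD of 0.10. With an SD of 0.5 or more were 6 of the 12, 7 without GFP 3, and 8 without GFP 1 and GFP 3. All genes had 12.1%, 9.47% and 7.04%.

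Precursors of oligodendrocytes did not share this division. Their 9 markers summed to 2151 to 2308 per kilobase, and 1 of 9 had GFP 1, 3 and 4 above GFP 5 and 6, against 18.0% of all genes. The receptor Pdgfra had 3888, 4666, 4148, 3915 and 4053 normalized counts, the proteoglycan Cspg4 (NG2) 814, 916, 834, 880.4 and 914, and Gpr17, a receptor of cells about to myelinate, 2436, 2605, 3276, 2978 and 2874. The exception was Bmp4, a growth factor, with 287, 396, 111, 55.9 and 59.2. Microglia had none of 15 markers at an SD of 0.5, and most had a mean of at least 1000, where few genes reach it (1.93% to under 5000, 0.51% from 5000). The list summed to 15738, 17465, 18420.2, 16437 and 15717 per kilobase. GFP 4 was highest for 12 of the 15, where it was highest for 20.3% of all genes. The chemokine receptor Cx3cr1 had 2565, 2841, 3149, 2728 and 2738 normalized counts, the purine receptor P2ry12 2107, 2488, 2984, 2453 and 2289, Tmem119 1152, 1231, 1419, 1232 and 1164, and the complement gene C1qb 2151, 2271, 2278, 2170.4 and 2207.

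**Figure D3:**
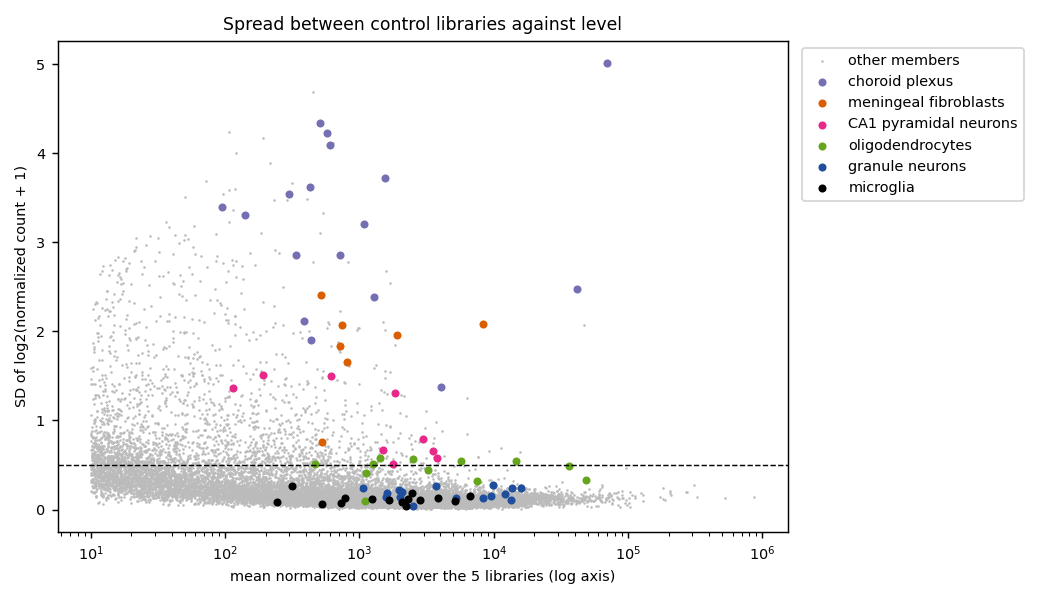
SD of log2(normalized count + 1) over the 5 control libraries (vertical) against the mean normalized count (horizontal, log axis), 1 point per gene, with 6 marker lists in colour and a dashed line at an SD of 0.5. Granule neuron and microglia markers lie below the line, CA1, meningeal and choroid plexus markers above it, and oligodendrocyte markers on either side.

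Vessel genes were highest in GFP 3. All 12 endothelial markers had their highest value in GFP 3, against 25.8% of all genes. GFP 1, 3 and 4 lay above GFP 5 and 6 for 11 of 12, against 18.0%. The list summed to 6056, 7282, 5229.5, 3669 and 3905 per kilobase. Cldn5, a tight junction protein of the blood-brain barrier, had 1333, 1422, 974, 787 and 824 normalized counts, the cadherin Cdh5 1132, 1472, 757, 450.4 and 543, and the adhesion protein Pecam1 1548, 1955, 1092, 654 and 749. With an SD of 0.5 or more were 3 of the 12 endothelial markers, 2 without GFP 3 and 0 without GFP 1 and GFP 3, where all genes had 12.1%, 9.47% and 7.04%, so the last 2 counts lie near the share of all genes.

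In the list of pericytes and smooth muscle the 3 widest spreads were those of smooth muscle genes. There were 3544, 2619, 965, 113 and 289.7 normalized counts of the actin gene Acta2, 2171, 1659, 639, 79.3 and 206 of transgelin, Tagln, and 2714, 2407, 935, 199 and 402 of the smooth muscle myosin Myh11. GFP 1 was highest and GFP 5 lowest for these 3. An opposite-strand gene covers 67.9% of the exonic bases of Tagln. The pericyte channel genes had narrow ranges, with 161, 158, 143, 144 and 156 for Kcnj8 and 347, 462, 455, 343 and 372 for Abcc9. Vitronectin, Vtn, of pericytes had 5961, 7561, 3199, 1953 and 2071.

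Fibroblast genes of the meninges spread further. All 7 had an SD of at least 0.5, all 7 without GFP 3, and 6 of 7 without GFP 1 and GFP 3. All genes had 12.1%, 9.47% and 7.04%. All 7 were highest in GFP 3, against 25.8% of all genes. The list summed to 4139.8, 6773, 1130.4, 419 and 438 per kilobase. Collagens had 3233, 4860.5, 873, 233 and 315 normalized counts for Col1a2 and 1090.0, 1166, 247, 31.5 and 49.8 for Col3a1. Aldh1a2, a retinoic acid-making enzyme of the meninges, had 1362, 1777, 369.5, 90.5 and 85.2 and the GABA transporter Slc6a13 1488, 1498, 357, 115 and 118. Igf2, a growth factor of meninges and choroid plexus, had 12592, 24513, 2717, 1034 and 1064, and another gene on the same strand covers 62.8% of its exonic bases. Ptgds, the prostaglandin D synthase of the leptomeninges, was a very abundant transcript in GFP 1 and GFP 3 but not in the others, with 103947, 102361, 15273, 5972 and 6062. Proteoglycan 4, Prg4, had 632, 909, 23.1, 4.07 and 4.15, the transcription factor Foxc2 172, 249, 9.90, 4.07 and 3.12, and the sulfate transporter Slc13a4 2509.6, 4786, 462, 88.4 and 83.1. These 4 genes were named after their values were seen.

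Choroid plexus genes were high in GFP 3 alone. All 17 markers had their highest value in GFP 3, as did 25.8% of all genes. Of the 17, Steap1, Kcne2, Tmem72 and Folr1 reached the limit on the mean only through GFP 3. That they were counted thus rested on GFP 3 itself. The shares of all genes are therefore given as a description for this list, and no comparison is drawn from them. The list summed to 1716, 337097, 2513, 933 and 880.3 per kilobase. Ttr, transthyretin, the thyroid hormone carrier of the cerebrospinal fluid (ENSMUSG00000061808, chromosome 18, 20665280 to 20674321, plus strand), had 176, 345860.5, 1312, 113 and 80.0 normalized counts. In GFP 3 it took 0.646% of all normalized counts, and in each other library at most 0.00233%. Enpp2, autotaxin, had 5809, 190219, 6103, 3227 and 3182, the anti-ageing coreceptor Klotho, Kl, 1697, 13733, 1695, 1722 and 1448, and the intracellular chloride channel protein Clic6 75.4, 7618, 48.4, 15.2 and 12.5. The potassium channel subunit Kcne2 had 2.90, 2533, 11.0, 1.02 and 1.04, the folate receptor Folr1 11.6, 2123, 15.4, 3.05 and 6.23, the homeodomain factor Otx2 87.9, 1369.5, 22.0, 2.03 and 4.15, and the prolactin receptor Prlr 218, 5788, 133, 104 and 162. The mean list level over the libraries was 68628 per kilobase with GFP 3 and 1511 without it. All 17 had an SD of at least 0.5, as did 12.1% of all genes. Without GFP 3 it was 12 of 17, and 9.47% of all genes. GFP 1 or GFP 4 was then highest for most of the genes given above with their values.

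Genes of ependyma, which lines the ventricles, were also highest in GFP 3, with list sums of 400.1, 857, 291, 128 and 126 per kilobase. Foxj1, the factor of motile cilia, had 276, 872, 231, 155 and 135 normalized counts, while Ccdc153 and Tmem212 had 84.1, 78.3, 40.7, 3.05 and 1.04 and 49.3, 78.3, 33.0, 0 and 1.04. The last 2 were at or near 0 in GFP 5 and GFP 6. Mia, the remaining marker of 6, did not reach the mean of 10.

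A second group of genes in GFP 3 belongs to photoreceptors of the retina and their relatives in the pineal gland, a set of 14 chosen after its values were seen. The transcription factor Crx, which drives photoreceptor and pineal genes (chromosome 7, 15865947 to 15879968), had 0, 599, 0, 3.05 and 0 normalized counts. Rbp3, the retinoid-binding protein of photoreceptors (chromosome 14, 33954003 to 33964216), had 5.80, 1987, 6.60, 16.3 and 8.31, and Tph1, which makes serotonin in the pineal gland, 16.4, 2483, 23.1, 17.3 and 20.8. Gnb3, a G protein beta subunit of cones, had 6.76, 1129, 3.30, 3.05 and 5.19, the cone transducin Gnat2 0.966, 257, 5.50, 1.02 and 1.04, and the arrestin Sag 61.8, 1088, 79.2, 79.3 and 92.4. The homeodomain factor Lhx4 had 1.93, 475, 1.10, 3.05 and 0, the channel subunit Cngb3 1.93, 357, 0, 0 and 0, and the cone phosphodiesterase Pde6c 1.93, 343, 7.70, 4.07 and 7.27. Asmt, which makes melatonin, had 78.3 in GFP 3 and 0 to 3.12 in the others. Aanat, the enzyme before it in that pathway, and Rcvrn, recoverin of photoreceptors, did not reach the mean of 10, with 6.76, 12.7, 8.80, 5.08 and 6.23 and 10.6, 3.46, 2.20, 4.07 and 3.12.

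Promoters of these genes are shown because most of the set, though not Rcvrn and Aanat, was high together. In addition, CRX, itself in the set, and OTX proteins are known to bind sites with the core letters TAATCC. The 250 bases before the transcription start were read from RefSeq on GRCm38.p6 for the 9 of 14 genes that matched, and TAATCC was searched on both strands. It was found in 4 of these 10 windows (40%), against 6.25% of all 32851 windows of 27025 genes. Since the 14 genes were chosen on their values in GFP 3, both shares are a description of the letters and no comparison is drawn from them. The matches are in capitals and lie on the opposite strand, where TAATCC reads GGATTA. The windows are chr7:15879956-15880205 (minus strand), chr14:33953753-33954002 (plus), chr3:108092816-108093065 (plus) and chr1:87803430-87803679 (plus), written 5′ to 3′ in the direction of the gene.
Crx: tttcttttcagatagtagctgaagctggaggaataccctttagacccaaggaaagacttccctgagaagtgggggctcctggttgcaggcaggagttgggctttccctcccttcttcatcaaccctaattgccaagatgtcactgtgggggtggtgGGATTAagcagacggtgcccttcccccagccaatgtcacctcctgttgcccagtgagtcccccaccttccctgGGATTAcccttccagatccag
Rbp3: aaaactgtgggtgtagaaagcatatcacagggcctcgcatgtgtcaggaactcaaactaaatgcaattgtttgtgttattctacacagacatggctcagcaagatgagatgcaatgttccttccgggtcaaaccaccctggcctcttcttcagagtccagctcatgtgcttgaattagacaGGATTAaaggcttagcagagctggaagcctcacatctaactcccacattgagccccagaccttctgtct
Gnat2: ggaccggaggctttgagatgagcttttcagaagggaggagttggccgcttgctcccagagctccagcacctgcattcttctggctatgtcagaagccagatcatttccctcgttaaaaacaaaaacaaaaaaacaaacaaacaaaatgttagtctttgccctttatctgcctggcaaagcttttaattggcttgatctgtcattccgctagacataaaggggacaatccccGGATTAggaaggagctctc
Sag: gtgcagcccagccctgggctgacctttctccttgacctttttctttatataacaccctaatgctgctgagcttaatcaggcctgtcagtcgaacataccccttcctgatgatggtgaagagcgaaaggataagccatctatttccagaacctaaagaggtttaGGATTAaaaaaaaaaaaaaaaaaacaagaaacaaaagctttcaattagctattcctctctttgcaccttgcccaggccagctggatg
The match begins 94 and 21 bases before the start in Crx, 69 in Rbp3, 19 in Gnat2 and 87 in Sag. A match is a description of the letters and says nothing about binding in these samples.

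GFP 1 had its own set of genes. The 10 genes with the widest distance above the other 4 libraries included transcription factors of the habenula and thalamus and hormones of the anterior pituitary. Pou4f1 (Brn3a), the factor of medial habenula neurons, had 417, 4.61, 3.30, 3.05 and 1.04 normalized counts, and the orphan receptor Gpr151, a habenula marker, 1194, 19.6, 18.7, 6.10 and 19.7. Irx2 and Irx1, of the Iroquois homeodomain family, had 277, 12.7, 3.30, 1.02 and 0 and 190.4, 18.4, 12.1, 25.4 and 20.8. Tac2, the neurokinin B precursor made in the habenula, had 422, 57.6, 56.1, 51.8 and 70.6, and the synaptic organizer Cbln2 1418, 211, 210.1, 208 and 274. Growth hormone, Gh, had 370.1, 20.7, 20.9, 7.12 and 3.12 and prolactin, Prl, 388, 34.6, 48.4, 18.3 and 5.19. Pomc, the precursor of corticotropin, named after its values were seen, had 475, 55.3, 146, 49.8 and 40.5. Gng8 and Gpr139 completed the 10, with 214, 10.4, 23.1, 12.2 and 9.35 and 301, 34.6, 48.4, 48.8 and 66.5.

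The listed markers of thalamus and habenula were high in GFP 1 and intermediate in GFP 3. The 7 summed to 2079, 1775, 734, 454 and 432 per kilobase. Of these, 6 had an SD of at least 0.5, 6 without GFP 3 and 3 without GFP 1 and GFP 3. All genes had 12.1%, 9.47% and 7.04%. Tcf7l2, a Wnt effector of thalamic neurons, had 1661, 536, 221, 133 and 133 normalized counts, and Slc17a6, the vesicular glutamate transporter of thalamus and habenula, 3206, 1266, 170.5, 181 and 142. Gbx2, a thalamic homeodomain factor of which an opposite-strand gene covers 43.5%, had 211, 23.0, 6.60, 2.03 and 2.08. The kinase Prkcd of thalamic neurons and Zic1, a factor that meninges also express, were high in GFP 3 as well, with 2126, 4986, 2207, 922 and 835 and 2874, 2386, 491, 306 and 319.9. Lhx9 did not follow the list, with 2099, 1414, 1792, 1741 and 1731. Shox2, a thalamic homeodomain factor, had 657, 405, 7.70, 3.05 and 1.04, high in both GFP 1 and GFP 3.

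Blood cell genes were low. Haemoglobin and haem genes summed to 2022, 2777, 2789, 1349.9 and 2054 per kilobase, lowest in GFP 5, and the beta globin Hbb-bs had 972, 1277, 1319, 641 and 974 normalized counts. The globin copies Hba-a1 and Hba-a2 share most of their sequence, with 24.5% and 7.4% of 31-base words their own. Of 11 leukocyte markers 3 passed the mean of 10, and the T cell receptor chain Cd3e, the B cell gene Ms4a1 and the neutrophil gene S100a8 stayed below it. Mrc1, a receptor of perivascular and meningeal macrophages, had 486, 826, 271, 94.5 and 90.3, and the monocyte receptor Ccr2 33.8, 39.2, 4.40, 4.07 and 3.12.

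Receptors of the synapse are given by family. Among the 4 AMPA receptor subunits, which carry fast excitatory currents, the order per kilobase was Gria1 at 12004 ± 752, Gria2 at 2965 ± 314, Gria3 at 1198 ± 107 and Gria4 at 462 ± 32.1 (mean ± SD, n = 5). The ranges of the 4 did not overlap, since Gria1 lay within 10939 to 12881 and Gria2 within 2575 to 3292. Gria1 also had the highest normalized counts of the 4, 70019, 66104, 74452, 77839 and 74298, lowest in GFP 3 and highest in GFP 5.

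NMDA receptors, which need both glutamate and depolarization, had the obligatory subunit Grin1 at 2243 ± 133 per kilobase, followed by Grin2b at 1554 ± 129.5 and Grin2a at 1009.6 ± 88.4. Grin2c, of astrocytes and cerebellum, stood at 412 ± 13.9, Grin3a at 181 ± 28.0 and Grin2d, an interneuron subunit, at 109.5 ± 18.6. Grin3b did not reach the mean of 10. In each library Grin2b had more normalized counts than Grin2a, 34489.6, 36437, 41957, 41526 and 38657 against 16008, 17491, 20163, 19076 and 17791. Kainate receptors were led by Grik5 at 2589.8 ± 301 per kilobase, then Grik4 at 732 ± 105, Grik3 at 435 ± 78.2, Grik2 at 372 ± 30.1 and Grik1 at 83.6 ± 13.2, and the ranges of Grik3 and Grik2 overlapped. No subunit of these 3 families reached an SD of 0.5, where 12.1% of all genes and 1.93% of those with a mean of 1000 to under 5000 did.

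Of the metabotropic glutamate receptors 7 of 8 passed the mean of 10. Grm5 stood at 1722 ± 199 per kilobase, Grm2, a presynaptic receptor of granule neurons, at 1029.7 ± 206, Grm3 at 695 ± 57.9 and Grm7 at 566 ± 55.1. Grm2 had 5152, 3895, 4258, 6450.3 and 5439.5 normalized counts, with GFP 5 highest and GFP 3 lowest, as for the sum of the granule neuron markers. Grm4 was the receptor of this family with an SD of at least 0.5, with 795, 540.2, 356, 322 and 387, highest in GFP 1.

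GABA-A receptors, the chloride channels of fast inhibition, had 15 of 18 subunits above the mean of 10. Gabra5, an extrasynaptic alpha subunit of the hippocampus, led at 4864 ± 464 per kilobase. Gabra2 stood at 2288 ± 293, Gabra4 at 1648 ± 105 and Gabrd, the delta subunit of tonic inhibition in granule neurons, at 724 ± 95.9. Gabrd had 2354, 1889, 1748, 2366 and 2053 normalized counts. Gabra3 was less even than the other abundant subunits, with 1976, 1219.7, 1645, 1105 and 2204. Gabrp had no read in any library, and Gabra6, the cerebellar alpha subunit, and Gabre did not reach the mean of 10. The subunits with an SD of at least 0.5 were Gabrq (55.1, 13.8, 8.80, 4.07 and 27.0) and Gabrr2 (19.3, 21.9, 15.4, 6.10 and 4.15), both of low level.

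**Figure D4:**
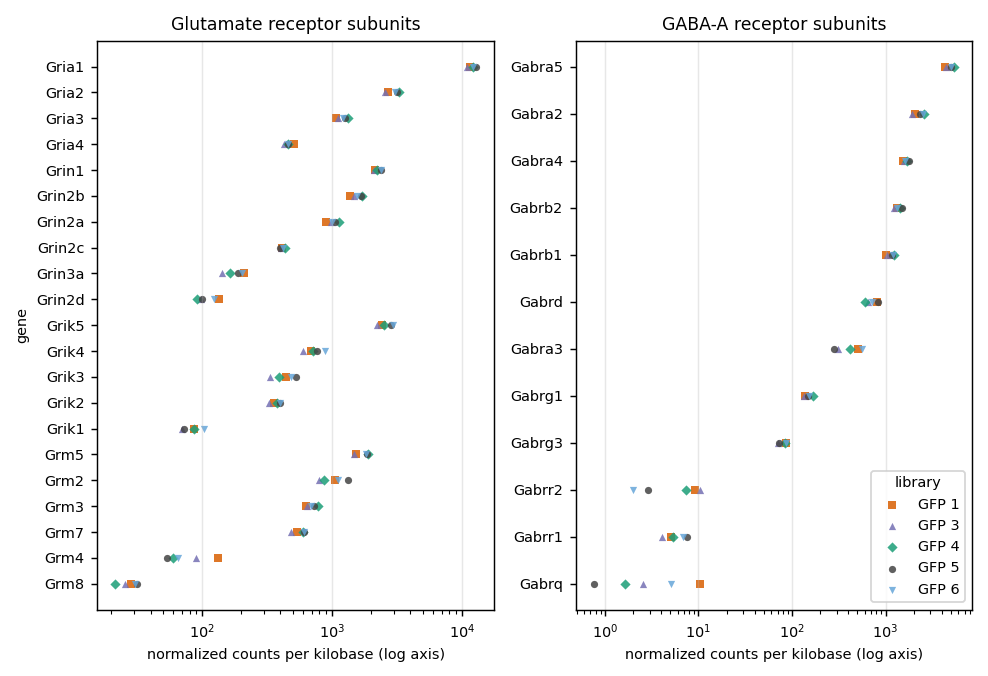
Level per kilobase of exon (normalized counts, log axis) of glutamate receptor subunits (left) and GABA-A receptor subunits (right) with a mean of at least 10, except 4 not reported here, 1 point per control library. Gria1 (mean 12004) lies above Gria2 (mean 2965) in every library, and the 5 points of most subunits lie close together, except for Grm4, Gabrq and Gabrr2.

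Of 20 voltage-gated potassium channel genes none reached an SD of 0.5, of 11 sodium channel genes 2 did and of 10 calcium channel genes 1. All genes had 12.1%, with 9.56% at a mean of 200 to under 1000, 1.93% to under 5000 and 0.51% from 5000. These lists are small. Kcnd2, of the dendritic A-current, stood at 1766 ± 140.4 per kilobase among the potassium channels. Among pore-forming sodium channels Scn2a stood at 1621 ± 147, Scn8a at 1287 ± 86.3 and Scn1a, of interneurons, at 444 ± 23.8. Scn4b varied, with 1283, 1739, 1398, 682 and 729 normalized counts, and GFP 1, 3 and 4 lay above GFP 5 and 6. Cacna1e, of R-type current, led the calcium channels in normalized counts, with 19161, 20005, 22652, 25334 and 23003, and stood at 873 ± 98.3 per kilobase beside Cacna1h, of T-type current, at 848 ± 80.7. Cacna1f, the calcium channel of photoreceptor terminals, was another transcript raised in GFP 3, with 3.87, 77.2, 1.10, 4.07 and 3.12.

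Vesicle release genes had 2 of 18 members at an SD of 0.5 or more, both glutamate transporters of other cell groups. All genes had 12.1%, with 9.56% at a mean of 200 to under 1000, 1.93% to under 5000 and 0.51% from 5000. Slc17a7, the vesicular glutamate transporter of granule and pyramidal neurons, stood at 15519.5 ± 2052 per kilobase, against 184 ± 246 for Slc17a6 and 59.2 ± 23.0 for Slc17a8, the third transporter. Complexin 2, Cplx2, led at 25382 ± 3151, then Snap25 at 18867 ± 2149, Slc17a7, synaptophysin, Syp, at 13602 ± 1247, the vesicle fusion protein Vamp2 at 13390.5 ± 956 and complexin 1, Cplx1, at 12597 ± 1041. GFP 6 was highest for 10 of the 18, where it was highest for 19.6% of all genes. Syn2, a synapsin, had 46481, 40824, 51643, 58121 and 60949 normalized counts and Slc17a7 74798, 70301, 84835, 92286 and 96184. The synaptic vesicle glycoproteins differed, with 21486, 18229, 20919.8, 23226 and 22600.3 for Sv2a, 22154, 21241, 30141, 22857 and 31417 for Sv2b and 3668, 2985, 3269, 4789 and 3949 for Sv2c, the form on the granule neuron list.

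Postsynaptic density genes had none of 13 at an SD of 0.5, where all genes had 12.1% and those with a mean from 5000 on 0.51%. GFP 5 was highest for 9 of 13, against 20.8% of all genes. The scaffold Dlg4 (PSD-95) had 42719.9, 41157, 48992, 49872 and 49445 normalized counts and Shank3 15636, 17015, 18435, 20208 and 19268. Per kilobase Camk2a stood at 36629 ± 5004 and Camk2b at 11153 ± 1026. Homer2 was the least even scaffold, with 4358, 6323, 7413, 3719.7 and 3379 normalized counts and an SD of 0.49, against 0.16 for Homer1.

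Neuropeptides and granins numbered 19 of 20 above the mean of 10. An SD of at least 0.5 was found for 2, Tac2 and Adcyap1, near the 12.1% of all genes. Chromogranin B, Chgb, a protein of dense-core vesicles, led at 17206 ± 2275 per kilobase, followed by Cck, Sst and secretogranin 2, Scg2, at 6542 ± 423. The nerve growth factor relative Bdnf had 2664, 2907, 3169.7, 3058 and 3217 normalized counts, with an SD of 0.11, and enkephalin, Penk, 892, 1059.6, 1088, 1035 and 871. Adcyap1, the peptide PACAP of mossy cells and other neurons, had 924, 424, 378, 569 and 699.9, lower in GFP 3 and GFP 4, as was Calb2. Corticotropin-releasing hormone, Crh, was low, with 38.7, 40.3, 30.8, 41.7 and 37.4, and Trh did not reach the mean of 10.

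Activity-regulated genes, which neurons induce within minutes of firing, were present at moderate levels, and 7 of 29 had an SD of at least 0.5, against 12.1% of all genes. Without GFP 3 the count was 3 of 29, near the 9.47% of all genes. The 7 were Fos, Egr1, Egr2, Arc, Npas4, Nr4a1 and Klf4, and each was highest in GFP 3. Fos, the founding immediate early gene (chromosome 12, 85473890 to 85477273), had 310.2, 518, 224, 208 and 281 normalized counts, and Arc, which removes AMPA receptors from the synapse, 3357, 6106, 4217, 2179.6 and 2988. Egr1 had 3058, 4341, 3433, 1689.6 and 2410.3, the neuron-specific factor Npas4 113, 305, 112, 44.7 and 190.0, and the orphan nuclear receptor Nr4a1 1310.4, 1936, 1257, 663 and 975. GFP 5 was lowest for all 7. Other members were even, such as Egr3 with 2084, 2038, 2205, 2502 and 2413, Nr4a3 with 4985, 5499.8, 6516, 6044 and 6585 and Klf10 with 1403, 1861, 1543, 1626 and 1653. Jun was the most abundant of the list per kilobase at 3242 ± 584, with 11489.8, 8239.8, 8399, 12131 and 11430.5 normalized counts, low in GFP 3 and GFP 4.

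The promoter of Fos is shown as an example of a variable gene with the TATA letters. TATAAA on either strand was present in 12.4% of all 250-base windows before a start, and in 6.88% of those of the genes with a mean of at least 10. Among genes with a mean of at least 50, it was present in 10.7% of windows where the SD was at least 0.5 (708 of 982 genes matched) and in 5.58% where the SD was under 0.1 (4517 of 5588 matched). Both sets were cut by their spread in these libraries, and spread fell with level. The shares are therefore a description of the letters, and no comparison is drawn from them. The window is chr12:85473640-85473889 (plus strand, RefSeq on GRCm38.p6), and the capitals mark TATAAA, which begins 33 bases before the start.
Fos: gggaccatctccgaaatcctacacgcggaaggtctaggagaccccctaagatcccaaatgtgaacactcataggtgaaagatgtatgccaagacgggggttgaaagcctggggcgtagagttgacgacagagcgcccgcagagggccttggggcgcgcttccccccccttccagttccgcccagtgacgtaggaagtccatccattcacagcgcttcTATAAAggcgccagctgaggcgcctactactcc

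Genes of the circadian clock had none of 16 at an SD of 0.5 and a list sum of 13059 to 14417 per kilobase. That SD was reached by 12.1% of all genes and by 1.93% of those with a mean of 1000 to under 5000. Arntl (Bmal1), of the positive arm of the clock, had 1483, 1376, 1621, 1353 and 1437 normalized counts, and of the negative arm Per1 had 3776, 3896, 3578, 3544 and 3659.6 and Per2 2249, 2451, 2309.6, 2559 and 2232. Dbp, an output gene whose level swings widely over the day in many tissues, had 4811, 4887, 3698, 4209.7 and 3751, and Nr1d1 (Rev-erb alpha) 4413, 4417, 4009, 4316 and 3848. The hour of dissection is not given. Glucocorticoid-responsive genes had 1 of 12 at an SD of 0.5 or more, near the 12.1% of all genes. It was Plin4, a lipid droplet protein, with 232, 395, 122, 79.3 and 50.9. Fkbp5, the cochaperone of the glucocorticoid receptor, had 5767, 5902, 5796, 6823 and 5838, Sgk1 3789, 5203, 4959, 3231 and 3637, and the metallothionein Mt1 6838, 6641, 7579, 7161 and 7913.

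The 11 heat shock genes had the lowest median SD of the 42 lists, 0.07 on the log2 scale. Hspa8, the constitutive chaperone, had 52989, 51674, 54162, 52810.2 and 53446 normalized counts and an SD of 0.02, and Hspe1, of the mitochondrial chaperonin, 1653, 1738, 1687, 1686 and 1711. Hsp90ab1 led at 31431 ± 1509.7 per kilobase. Hspb1, a small heat shock protein, was the exception of 11, with 273, 319, 134, 83.4 and 111, higher in GFP 1 and GFP 3. Several of these genes have near copies, and 55.2% of the 31-base words of Hspa8 and 44.6% of those of Hspb1 are their own.

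Interferon response genes were uneven, and most had the same libraries on the high side. GFP 1, 3 and 4 also had the highest meningeal and endothelial sums, and the part of those tissues in these values was not tested. Of 21 above the mean of 10, 13 had an SD of at least 0.5, 12 without GFP 3 and 4 without GFP 1 and GFP 3, against 12.1%, 9.47% and 7.04% of all genes. GFP 3 was highest for 17 of the 21, against 25.8% of all genes. For 18 of 21 GFP 1, 3 and 4 all lay above GFP 5 and 6, against 18.0%. Ifit1, an antiviral RNA-binding protein, had 194, 371, 104, 77.3 and 73.7 normalized counts, the ubiquitin-like Isg15 64.7, 100.2, 49.5, 28.5 and 42.6, and the GTPase Gbp2 456, 484, 236, 106 and 133. Bst2, tetherin, had 319.9, 299, 153, 90.5 and 102, and the transcription factor Irf7 141, 139, 104, 52.9 and 86.2. The signalling gene Stat2 varied less, with 1245, 1368, 1304, 1179 and 1194.

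Genes of antigen presentation had GFP 1, 3 and 4 above GFP 5 and 6 for 10 of 11 members, against 18.0% of all genes. An SD of at least 0.5 was found for 6 of 11, against 12.1%. Without GFP 1 and GFP 3 it was 3 of 11, against 7.04%. Class I genes differed by moderate factors, with 4446, 5076, 4118, 3069 and 2961 normalized counts for beta-2 microglobulin, B2m, and 2124, 2307, 1408, 1000.3 and 1001 for H2-K1, whose 31-base words are 77.2% its own. Class II genes, found on macrophages and dendritic cells, spread more widely. Cd74, the invariant chain, had 439.7, 616, 63.8, 23.4 and 20.8, H2-Aa 189, 379, 18.7, 14.2 and 4.15 and H2-Ab1 185, 284, 28.6, 9.15 and 18.7. Both kinds were high in GFP 1 and GFP 3, the libraries with high meningeal sums, and the part of meninges in these values was not tested. The class I-like gene H2-Q1 had 272, 259, 1.10, 0 and 0, with 75.9% of its words its own.

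Spread over all 16923 genes was modest. The median SD on the log2 scale was 0.139 (quartiles 0.0848 and 0.284) and the median coefficient of variation was 9.65%. Counting error at the depth of these libraries gives a median coefficient of 3.42%, and the part beyond counting had a median of 7.80%. An SD under 0.1 was found for 5606 genes (33.1%), and an SD of at least 0.5 for 2050 (12.1%), 712 of them at 1 or more. At this second limit mt-Te lay just inside with an SD of 0.50006 and Syt6 just outside with 0.49952. Spread fell with level, from 39.5% of genes with a mean of 10 to under 50 at an SD of 0.5 or more, to 22.6% at 50 to under 200, 9.56% at 200 to under 1000, 1.93% at 1000 to under 5000 and 0.51% from 5000 on. By class it was 11.4% of protein-coding genes, 18.7% of long intergenic noncoding RNAs, 18.0% of antisense RNAs and 19.7% of pseudogenes, and these classes differ in level too. A library was counted as standing apart where the gap from the highest or the lowest value to its neighbour, divided by the whole range of log2 values, was above 0.71, which chance passes in about 1 of 20 groups. That held for 852 genes (5.03%), near the share chance gives. GFP 3 stood apart on the high side for 307 genes (1.81%), GFP 4 for 81 (0.479%), GFP 1 and GFP 5 for 47 each (0.278%) and GFP 6 for 43 (0.254%).

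The 13 genes of a mean of at least 5000 that reached an SD of 0.5 were few enough to name, and they were chosen after their values were seen. Ttr, Enpp2, Igf2, Ptgds, Mal and Mobp are given above. Apod, apolipoprotein D of meninges and myelinating glia, had 10440.3, 11983, 5141, 2073 and 1904 normalized counts, Timp3, a metalloproteinase inhibitor, 11599.9, 15352, 8187, 5251 and 5754, and Trpm3, a cation channel of choroid plexus, 5837, 14554, 5359.5, 6801 and 5745. Lars2, the mitochondrial leucyl-tRNA synthetase, had 6846, 18438, 17728, 21019 and 13788, with GFP 1 below the rest, an order shared by Mir6236 (4779.5, 13409, 14696, 14753 and 9199.8) and by Gm15564 (1016, 3431, 2894, 4048 and 2740.5). AC149090.1, on an unplaced scaffold, had 9506, 3493, 7702, 8359.5 and 8786, low in GFP 3, and Gm23935 had 4132, 6279.5, 2365, 10519 and 8151.

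The steadiest genes of a mean of at least 1000 had varied roles. March5, a ubiquitin ligase of the mitochondrial surface (chromosome 19, 37207543 to 37222151), had 3424, 3443, 3427, 3429 and 3433 normalized counts and an SD of 0.0031 on the log2 scale. Hmbox1, a homeobox-containing factor, had 3107, 3122, 3117, 3103 and 3118, and Tmbim6, an inhibitor of cell death in the endoplasmic reticulum, 15879.8, 16029, 15888, 15914 and 15743. The segregase Vcp, with 53.7% of its 31-base words its own, had 11418, 11619, 11531, 11604 and 11639, the ribosomal protein Rpl27a 5251, 5241, 5209.9, 5319.9 and 5314, and Hey1, a Notch target, 2705, 2736, 2746, 2767 and 2747. Zfp664, Phf12, Gpr107 and Pdxdc1 completed the 10, with means of 6196, 2659, 3342 and 5430.0. All 10 had an SD of at most 0.0131. An SD this small is chosen from the lower end of 8134 values and describes these 5 libraries.

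The libraries contributed unequally to the spread. Of the 2050 genes with an SD of at least 0.5, 1279 (62.4%) were highest in GFP 3, against 20.8% of the other genes, and 400 (19.5%) in GFP 1, against 12.6%. GFP 4, GFP 5 and GFP 6 were highest for 143, 80 and 148. GFP 5 and GFP 6 were the lowest pair for 1102 of the 2050 (53.8%), against 13.1% of the other genes. Without GFP 3, 1438 of 16723 genes with a mean of at least 10 had an SD of at least 0.5 (8.60%), and without GFP 1 and GFP 3, 966 of 16574 (5.83%).

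When each variable gene was divided at the widest gap between its ordered values, 575 of 2050 (28.0%) had GFP 3 alone above the gap and 515 (25.1%) GFP 1 and GFP 3. Another 231 (11.3%) had GFP 1, 3 and 4 above it, 138 (6.73%) all but GFP 5, and 97 (4.73%) GFP 1 alone. GFP 4 alone stood above the gap in 31, GFP 6 alone in 33 and GFP 5 alone in 9. This division was chosen after the values were seen. Among the genes of GFP 3 alone were Mfrp, a frizzled-related membrane protein (6.76, 2245, 1.10, 0 and 0), the bicarbonate transporter Slc4a5 (7.73, 3167, 12.1, 2.03 and 3.12) and Tmem72 (2.90, 2867, 15.4, 2.03 and 2.08). E-cadherin, Cdh1, had GFP 1, 3 and 4 above the gap, with 357, 562, 31.9, 0 and 1.04, and P-cadherin, Cdh3, had GFP 1 and GFP 3, with 38.7, 211, 1.10, 0 and 0. The nicotinic receptor subunit Chrnb4 had 117, 1302, 5.50, 4.07 and 7.27. All but GFP 5 stood above the gap for Spink8, a protease inhibitor (248, 486, 583, 35.6 and 115), and Ankrd63 (279, 375, 524, 36.6 and 205).

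**Figure D5:**
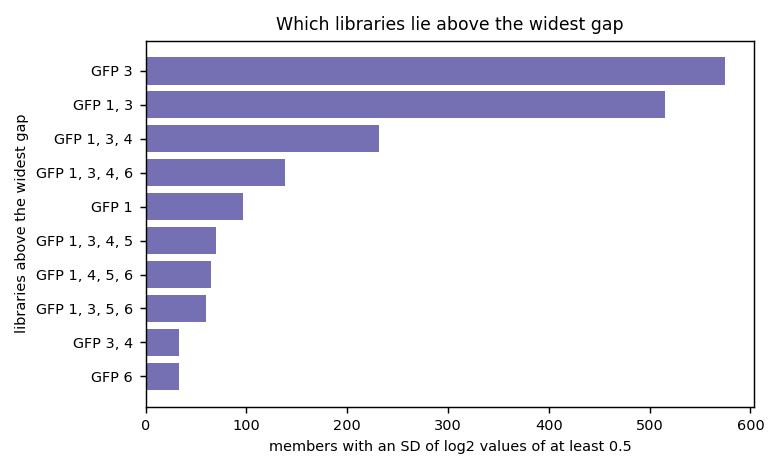
Number of genes with an SD of at least 0.5 (horizontal) by the set of control libraries that lies above the widest gap in the gene's ordered log2 values (vertical), for the 10 most frequent sets. GFP 3 alone (575 genes) and GFP 1 with GFP 3 (515) are the longest bars.

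GFP 6 and GFP 4 had small sets of their own. In GFP 6 the imprinted gene Dlk1, a Notch-ligand relative, had 611 normalized counts against 27.5 to 137 in the others, and Dio3, the thyroid hormone deiodinase of the same imprinted cluster, 381 against 61.6 to 86.0. The orphan receptor Gpr101 had 414 against 89.8 to 145, the cardiac and slow muscle myosin Myh7 346 against 139.7 to 194, and the heparan sulfate sulfotransferase Hs3st2 136 against 39.6 to 61.6. In GFP 4 the protease Capn11 had 290.4 against 22.2 to 53.9 and Efcab6 290.4 against 25.4 to 106. In GFP 5 the ribosomal RNA model n-R5-8s1 had 914 against 145 to 253, and the cation channel Trpa1 238 against 64.5 to 111.

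Some variable genes followed none of these orders. Gm47283, a gene model of the Y chromosome with 53.2% of its 31-base words its own, had 0.966, 287, 1.10, 130.1 and 173 normalized counts, high in GFP 3, 5 and 6 and near 0 in GFP 1 and GFP 4. Xist was high in every library and Ddx3y, Uty and Eif2s3y had no read in any, so these values are not read as a sign of male tissue. Where its reads came from was not tested. Cdh24, Kcnj8 and Mcm2, of the lists of CA3, pericytes and dividing cells, had narrow ranges in spite of modest levels, with 482, 464, 595, 508 and 545, 161, 158, 143, 144 and 156 and 321, 332, 312, 306 and 323. Krt5, a keratin, was low in GFP 3, with 100.5, 33.4, 86.9, 97.6 and 144, and so was Trpc7, a cation channel, with 306, 141, 223, 262 and 312. Gastrin-releasing peptide, Grp, was highest in GFP 6, with 536, 316, 351, 632 and 916.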

How the data were processed

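The values the authors deposited are normalized counts. Per the labels, the authors made this signal by dividing each gene count by 1 factor for its library. The submitters' processing notes name STAR 2.5.2a, featureCounts 1.5.1 and Subread, DESeq2 1.12.3 and R 3.3.1, cutadapt 1.9.1, bcl2fastq 1.8.4 and the build GRCm38, without their order or role. The strand setting, the annotation release and the handling of multi-mapping reads are not given in the sources used. The 5 columns of control mice were used. Their numbers do not match those in the sample titles, so the columns were assigned to the group only. All values above 0 (100%) were whole multiples of the value of 1 read within 0.01 reads, so whole reads and depth were recovered.

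Genes with a mean of at least 10 over these columns were kept. Spread is the SD over 5 libraries of log2(normalized count + 1), and 0.5 or more is called variable. Levels per kilobase used merged exons of GENCODE M21 on GRCm38, which gave a symbol for 48144 identifiers. No groups were compared, so no test was made. The SDs describe these 5 libraries, and whether each holds 1 mouse is not given. Of 325 named genes with a transcript sequence, 58 had under 90% of their 31-base words to themselves. Promoter windows were read from RefSeq (GRCm38.p6), with 1 chromosome left out of the motif search.

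Named genes were the 20 of highest mean and of highest level per kilobase, the 20 of largest SD (mean of at least 50) and the 10 of smallest SD (mean of at least 1000), the highest 4, the lowest and the most variable of each list, 11 fixed genes, and the 10 farthest from the rest in each library. Some genes that this rule names are not reported here. Any other gene in the text was picked with its values in view. The members and the lists were chosen with earlier results of these data known. Alternatives were TMM (edgeR 4.0.16), median-of-ratios (DESeq2 1.42.0) and equal-total scaling, other filters, pseudocounts of 0.5 and 8, other measures of spread and length, and each library left out. Leaving out GFP 1 and GFP 3 together was chosen after seeing the data. Scripts ran in Python 3.11.15 (matplotlib 3.10.9, pandas 2.3.3, numpy 2.4.6) and R 4.3.3.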

Additional observations from a re-analysis of the deposited data

Results flagged for a closer look

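The values below belong to a library that stood apart from the other 4 of its gene, by the gap to the nearest library as a share of the whole range (above 0.71, the 95% limit for 5 samples). Chance gives about 1 in 20 groups, near the 5.03% of all 16923 genes that met it. Of 326 genes named in the report 39 met it, 21 of them because GFP 3 was high. Many were named for a wide spread or for a library far from the rest, so this number cannot be set against the share of all genes. Of 42 gene lists 1 met it, choroid plexus, with 337097 per kilobase in GFP 3 against 880.3 to 2513 in the other libraries.

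Choroid plexus genes stood apart in GFP 3, with normalized counts of 190219 for Enpp2, 7618 for Clic6, 2123 for Folr1, 2533 for Kcne2, 13733 for Kl, 5788 for Prlr and 2867 for Tmem72. Slc4a5 with 3167, Mfrp with 2245 and Trpm3 with 14554 did so too. Photoreceptor and pineal genes that stood apart in GFP 3 were Crx with 599, Rbp3 with 1987, Gnat2 with 257, Gnb3 with 1129, Lhx4 with 475, Cngb3 with 357, Pde6c with 343, Sag with 1088, Tph1 with 2483 and Cacna1f with 77.2. Kdm5d, with 1.15 in GFP 3 and 0 elsewhere, rests on 1 read. GFP 3 was below the others for AC149090.1, with 3493.

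In GFP 1 the habenula genes Pou4f1 with 417, Gpr151 with 1194, Tac2 with 422 and Irx1 with 190.4 stood above the others, as did Cbln2 with 1418 and Gng8 with 214. Sox10 was above the others in GFP 1 at 1242 against 1046 to 1089, a small difference among close values, and Gm15564 was below them at 1016. GFP 5 stood above the others for Prox1 with 20946, Dsp with 9619, Sox11 with 1634, Draxin with 198 and Fkbp5 with 6823. GFP 6 was above for Dio3 with 381 and for mt-Co3 with 2.08, and below for Mki67 with 89.3. GFP 4 was below for Igfbpl1 with 211. The cause of these differences was not tested.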

How the results depend on the processing

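No paired analysis was possible because no groups were compared and the columns carry no replicate number of the labels. Scaling the 5 libraries by TMM, by median of ratios or to equal totals moved no list level or share of counts by more than its SD. Counts of genes have no such SD. Genes with an SD of at least 0.5 went from 2050 to 2079, 2067 and 2185 in that order. The largest median shift of a library was 0.07 on the log2 scale (GFP 1, equal totals). Leaving out each library in turn gave 16723 to 17009 genes with a mean of at least 10, 18.5% to 19.0% of counts in the 100 highest genes, and 1438 to 2236 genes with an SD of at least 0.5, fewest without GFP 3. List sums per kilobase then averaged 18734 to 20393 for granule neurons, 3090.1 to 3925 for CA1, 21143 to 24551 for oligodendrocytes, 1532 to 3120.5 for meninges and 1511 to 85565 for choroid plexus, the last 2 lowest without GFP 3. Without GFP 1 and GFP 3, 966 genes had an SD of at least 0.5 and the meningeal sum averaged 663. With no filter 26679 genes were kept and 8492 had that SD, and with a mean of at least 50 it was 982. The 100 highest genes held 30.9% counted per kilobase and 14.9% without the mitochondrial genome. The longest transcript as length gave 22495 for granule neurons and 31707 for oligodendrocytes. The median over the list was 755 for granule neurons, 208 for CA1 and 1067 for oligodendrocytes. On a linear scale GFP 3 stood apart as the highest library for 625 genes, against 307 on the log2 scale. Counting error widens the spread of genes with few reads, so an SD near 0.5 at a mean near 10 cannot be told apart from counting at this depth.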
